A study of Homo sapiens with 2 samples.

Results

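Of 9348 cells of the human hepatic line HepaRG that had received vehicle alone, 573 passed 2 cuts. These were a high mean score over 4 mesenchymal transcripts and a high sum of 3 mitotic transcripts. Most of the 573 cells had a UMI of only some of the 4 score transcripts. They were chosen by rank and threshold. Each barcode received a score, the mean of ln(1 + UMIs per 10000) over COL3A1, SPARC, LUM and PDGFRB, and the top 20% of cells in each library were called high-score cells. A gate then summed TOP2A, MKI67 and CENPF, and high-score cells with 10 or more gate UMIs per 10000 are called dividing high-score cells. They numbered 258 of 4454 cells in replicate 1 (5.79%; by the Clopper-Pearson method, which is exact, the 95% interval ran 5.12 to 6.52%) and 315 of 4894 in replicate 2 (6.44%, 5.76 to 7.16%). They were set against 537 and 547 resting high-score cells, which had under 5 gate UMIs per 10000, and against 766 and 804 dividing low-score cells, which passed the same gate but ranked in the lower 50% of the score. Resting here means only that the gate sum was under 5. The 1216 and 1465 resting low-score cells completed the square of 4 classes. The values of COL3A1, SPARC, LUM, PDGFRB, TOP2A, MKI67 and CENPF chose the classes and are given only as a description.

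HepaRG cells, supplied as terminally differentiated human hepatic cells and labelled hepatocyte, were cultured for 7 days on rat-tail collagen and then given 0.1% DMSO for 24 h. Both libraries came from this vehicle group; no chemical treatment was compared. Cells were dissociated in the presence of actinomycin D and anisomycin, which block transcription and translation, were fixed, and were captured with a droplet kit that reads 3′ ends, with 10000 cells loaded per library. The titles number the libraries 1 and 2, but both carry the same biological replicate label, so the spread between them may be technical. Wherever a pair of values is given below for a class, the value of replicate 1 stands before that of replicate 2. Levels are CPM, the UMI counts summed over the cells of a class and scaled to the total of that sum, and folds are ratios of CPM on the log2 scale with the SD over the 2 libraries.

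Collagen III, SPARC and lumican are proteins of the extracellular matrix that fibroblasts and stellate cells secrete in liver, and PDGFRB is the receptor through which PDGF drives these cells to divide and migrate. TOP2A untangles DNA before chromosomes separate, MKI67 coats mitotic chromosomes and CENPF binds the kinetochore, and all 3 transcripts are made mainly from S phase to mitosis. HepaRG is a bipotent line whose cultures are known to hold hepatocyte-like and biliary-like epithelial cells side by side.

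The dividing high-score sums held 5103036 and 3941687 UMIs. Median depth per cell was 19832 and 11621 UMIs in dividing high-score cells, 14741 and 8628 in resting high-score cells, 21789.5 and 11575.5 in dividing low-score cells, and 16992 and 9599 in resting low-score cells. The median mitochondrial share was lowest in dividing high-score cells, at 7.42% and 7.65%, against 8.68% and 9.16% in resting high-score cells and 8.19% and 8.44% in dividing low-score cells. Scrublet, a doublet caller, marked 3 barcodes in replicate 1 and 0 in replicate 2 and so had not worked as a filter. The highest 4% of its scores held 3.49% and 5.08% of dividing high-score cells and 5.09% and 2.99% of dividing low-score cells. The libraries shared 7 kept barcodes, and none of these was a dividing high-score cell in both.

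The label of dividing mesenchymal-like cells was met only in part. Among 25 further mesenchymal markers, 14 reached a mean of 10 CPM over the 8 sums of 4 classes and 2 libraries. The matrix glycoprotein FN1 stood at 1074 and 1011 CPM in dividing high-score cells, the matricellular protein POSTN at 981 and 876 CPM, and the fibrillar collagen COL5A1 at 194 and 189 CPM. The transcription factors ZEB1 and TWIST1, which drive epithelial-to-mesenchymal transition, stood at 142 and 156 CPM and at 136 and 153 CPM. In contrast, the mesenchymal filament vimentin (VIM) had 0.588 and 0 CPM, the fibroblast surface protein THY1 had 0 CPM in both libraries, and the collagen chain COL1A2 had 0 and 0.254 CPM. Its partner chain COL1A1 had 27.6 and 12.4 CPM, against 7.09 and 4.71 CPM in resting high-score cells. Epithelial keratins were abundant, with KRT8 at 783 and 778 CPM, KRT18 at 252 and 273 CPM and KRT19 at 668 and 730.4 CPM. Other markers of these kinds were often low. Of 8 epithelial markers 4 reached a mean of 10 CPM, and 1 was under 1 CPM in dividing high-score cells. Of 11 biliary and progenitor markers 3 reached it, and 5 were under 1 CPM. The 11 summed to 845 and 919 CPM, mostly KRT19. The cells therefore carried a mixture of mesenchymal and keratin transcripts, and they are called by their rule here rather than by a cell type.

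Markers of cells from outside the line were scarce. Summed over the 10 endothelial markers, dividing high-score cells had 28.0 and 28.4 CPM, against 59.6 and 57.4 CPM in resting high-score cells and 12.5 and 13.1 CPM in dividing low-score cells. Of these, 2 had no count in dividing high-score cells, and most of the sum was the VEGF receptor KDR (11.8 and 18.0 CPM) and the adhesion protein PECAM1 (10.8 and 7.61 CPM). The 10 immune markers summed to 33.7 and 27.4 CPM in dividing high-score cells, 31.6 and 35.4 CPM in resting high-score cells and 18.8 and 18.8 CPM in dividing low-score cells, and 5 of them, including the T cell gene CD3E and the macrophage gene CD163, had no count. The 13 stellate cell and pericyte markers summed to 61.7 and 64.2 CPM, against 93.5 and 81.1 CPM in resting high-score cells and 57.4 and 49.9 CPM in dividing low-score cells.

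The 17 hepatocyte markers moved with the classes and differed between libraries. Their sum was 502 and 1180.2 CPM in dividing high-score cells, 992 and 1613 CPM in resting high-score cells, 2571 and 2318 CPM in dividing low-score cells and 10164 and 9783 CPM in resting low-score cells. Of 315 dividing high-score cells in replicate 2, 5 cells with over 50 of these UMIs per 10000 held 53.5% of the class's hepatocyte UMIs and had a median of 27069 UMIs per cell. In replicate 1 there was 1 such cell, with 5.51% of those UMIs. Albumin (ALB), the main secreted protein of hepatocytes, accordingly stood at 46.2 and 348 CPM in dividing high-score cells, against 1108 and 929 CPM in dividing low-score cells. Some results below are also given with the cells over this cut left out of all 4 classes. The 17 markers themselves chose those cells, so a change in these markers follows in part from the choice.

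The promoters of a pair of mitotic genes are shown because these genes were among those most above resting cells, and because promoters of such genes are known to carry CCAAT boxes, bound by NF-Y, and CHR elements (TTTGAA), bound by the DREAM and MMB complexes. The windows run from 250 bases before to 50 bases after the annotated start in RefSeq (GRCh38.p14), both on the minus strand. NEK2, a kinase that splits centrosomes before mitosis, starts within chr1:211675572-211675871, and CDCA3, an adaptor that helps to destroy the mitotic inhibitor WEE1, within chr12:6851237-6851536. Capitals mark CCAAT and TTTGAA on the printed strand or its complement, and the motifs do not overlap.
NEK2: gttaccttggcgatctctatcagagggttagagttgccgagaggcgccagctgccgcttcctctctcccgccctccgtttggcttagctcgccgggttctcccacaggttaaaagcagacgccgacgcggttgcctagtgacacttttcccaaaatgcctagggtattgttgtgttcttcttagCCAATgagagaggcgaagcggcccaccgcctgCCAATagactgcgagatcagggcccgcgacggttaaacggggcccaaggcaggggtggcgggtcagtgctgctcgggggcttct
CDCA3: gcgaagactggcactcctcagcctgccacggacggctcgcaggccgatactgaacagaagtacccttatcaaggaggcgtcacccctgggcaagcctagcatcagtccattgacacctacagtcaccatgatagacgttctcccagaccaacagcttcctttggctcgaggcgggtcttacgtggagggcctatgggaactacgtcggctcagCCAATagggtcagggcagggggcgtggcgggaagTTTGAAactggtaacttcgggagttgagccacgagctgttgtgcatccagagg
NEK2 held 2 CCAAT motifs, 66 and 34 bases before the start, and CDCA3 held a CCAAT 37 bases and a TTTGAA 3 bases before it. Over all 27305 promoter windows of the same length, searched on both strands, 35.7% held CCAAT and 15.4% held TTTGAA. Among 45 matched promoters of the G2/M and mitosis list the shares were 68.9% and 68.9%, and among 32 matched S phase promoters 71.9% and 6.25%. GGAATG, the core bound by TEAD factors, was in 14.0% of all windows, 15.6% of G2/M windows and 32% of 25 matched windows of the matricellular list. The windows of SPP1 and WWTR1, the lowest matricellular genes in the comparison with resting cells, held none of the 3 motifs. A match describes letters in a window and is not evidence of binding.

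The share of cells that passed the dividing gate was lower at high score than at low score in replicate 1 and near equal in replicate 2. Of high-score cells, 28.96% (95% exact interval 26.0 to 32.1%) passed the dividing gate in replicate 1, against 34.4% (32.4 to 36.4%) of low-score cells. In replicate 2 the shares were 32.2% (29.3 to 35.2%) of high-score cells and 31.9% (30.05 to 33.7%) of low-score cells. The difference was −5.44 percentage points in replicate 1 and 0.31 in replicate 2, a mean of −2.57 ± 4.06 (SD, n = 2), so the direction was not shared. The exact permutation test over libraries gave a two-sided p of 0.667, where 2 libraries a class cannot give one under 0.333. It took the classes as unpaired although they share the captures, so it cannot decide the question. In some alternatives the high-score share was the lower one in both libraries, and in others it was not. With the top 10% of scores it was 28.3% and 29.9%, against 34.4% and 31.9% of low-score cells, and with PDGFRB left out of the score 26.9% and 30.9%, against 34.9% and 32.0%. When cells were thinned to 4000 UMIs before both gates, the shares were 31.9% and 34.7% in high-score cells against 35.6% and 36.9% in low-score cells. Thinning moved the class boundaries as well as the depth: through ties 1275 and 1414 cells became high-score cells, and the other 3115 and 3397 cells, all at a score of 0, low-score cells. With LUM left out of the score, the high-score share was 32.9% and 32.2%, against 32.7% and 32.9% of low-score cells. With a gate of 20, without COL3A1 or SPARC in the score, or without the highest 4% of Scrublet scores, the libraries differed. In each of these the high-score share was lower in replicate 1 and slightly higher in replicate 2. Intervals cover counting error only.

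**Figure D1:**
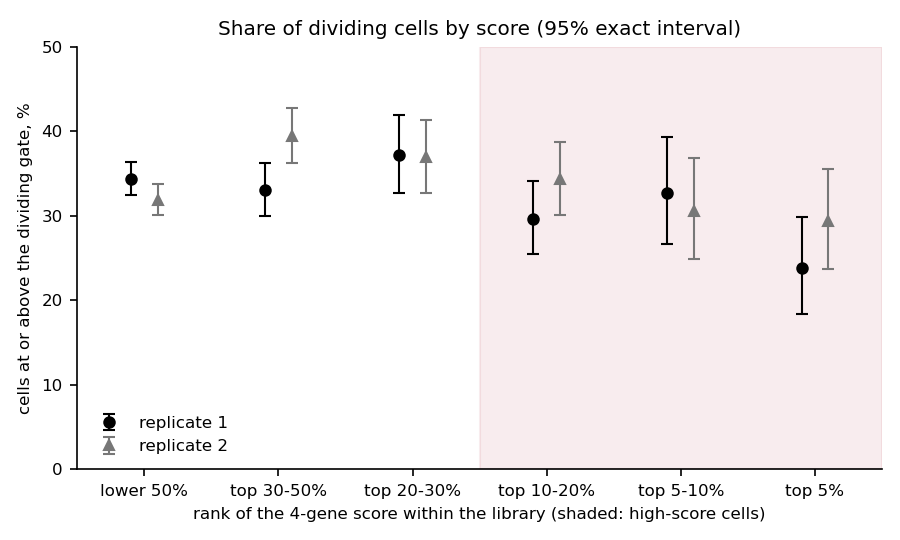
Share of cells that passed the dividing gate (vertical axis, %) by rank of the 4-gene score within each library (horizontal axis, low to high; shaded bins are the high-score cells), with 95% exact intervals; circles are replicate 1 and triangles replicate 2. The shares lie between 23.8% and 39.5%, and the top 5% of scores has 23.8% and 29.4%.

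Along the score, dividing cells were found in every bin. The share was 33.0% and 39.5% in cells ranked in the top 30 to 50%, 37.2% and 36.9% in the top 20 to 30%, 29.7% and 34.4% in the top 10 to 20%, 32.7% and 30.6% in the top 5 to 10%, and 23.8% and 29.4% in the top 5%. With all UMIs the top 5% thus had the lowest share in both libraries, with intervals in replicate 2 that overlapped those of most other bins, and its cells were also shallow, with a median of 13630 and 8457 UMIs, against 15777 and 9854 UMIs in the top 5 to 10%. With thinned cells the shares were 24.5% and 31.95% in the top 5% and 36.1% and 31.1% in the top 5 to 10%, so this order did not hold in replicate 2.

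The thresholds ran through a continuous range of cells. The score was 0 in 43.0% and 51.6% of cells, the threshold for a high score was 0.309 and 0.312, and low-score cells reached up to 0.103 and 0. Just inside the gate, at 10 to 12 gate UMIs per 10000, lay 34 and 37 dividing high-score cells, and just outside it, at 8 to 10, lay 30 and 38 high-score cells; their median gate sums were 10.8 and 10.9 inside and 9.12 and 9.14 outside. Next to the score threshold lay 37 and 31 dividing high-score cells with a median score of 0.320 and 0.325, and just outside it 25 and 34 dividing cells with a median score of 0.296 and 0.300. Between 5 and 10 gate UMIs lay 96 and 117 high-score cells, which entered neither class. The score rested on few molecules: 26 and 60 dividing high-score cells had a UMI of only 1 of the 4 score genes, 111 and 158 had 2, 87 and 79 had 3, and 34 and 18 had all 4. Leaving SPARC out of the score kept 70.2% and 71.4% of these cells, leaving LUM out kept 85.3% and 75.9%, PDGFRB 81.4% and 85.7%, and COL3A1 88.8% and 88.3%.

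The genes that chose the cells had these levels. COL3A1 had 81.1 and 96.4 CPM in dividing high-score cells, against 115 and 119.8 CPM in resting high-score cells. For SPARC the levels were 169.9 and 169 CPM, against 185 and 195 CPM. LUM had 85.0 and 116 CPM, against 122 and 149.7 CPM in resting high-score cells. PDGFRB stood at 45.3 and 38.3 CPM, against 35.0 and 38.7 CPM. All 4 were at or below 6.13 CPM in dividing low-score cells, as the rule required. The gate genes stood at 1156 and 1074 CPM (TOP2A), 595 and 556 CPM (MKI67) and 1075 and 978 CPM (CENPF) in dividing high-score cells, against 1069 and 1016, 570.5 and 545, and 1016 and 995 CPM in dividing low-score cells. Both dividing classes passed the same gate, so their similar levels of the gate genes follow largely from the rule.

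Of the other label markers, THBS1, a matricellular protein that activates latent TGF-beta, had 103 and 101 CPM in dividing high-score cells, 104 and 89.6 CPM in resting high-score cells, 67.1 and 65.6 CPM in dividing low-score cells and 49.7 and 52.4 CPM in resting low-score cells. Both high-score classes lay above both low-score classes. CD44, the hyaluronan receptor, had 102 and 92.9 CPM in dividing high-score cells, 83.2 and 82.9 CPM in resting high-score cells, 87.2 and 86.7 CPM in dividing low-score cells and 63.5 and 58.8 CPM in resting low-score cells. CD44 was thus highest where high score and division met, but the levels of dividing cells at high and low score lay close to each other.

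**Figure D2:**
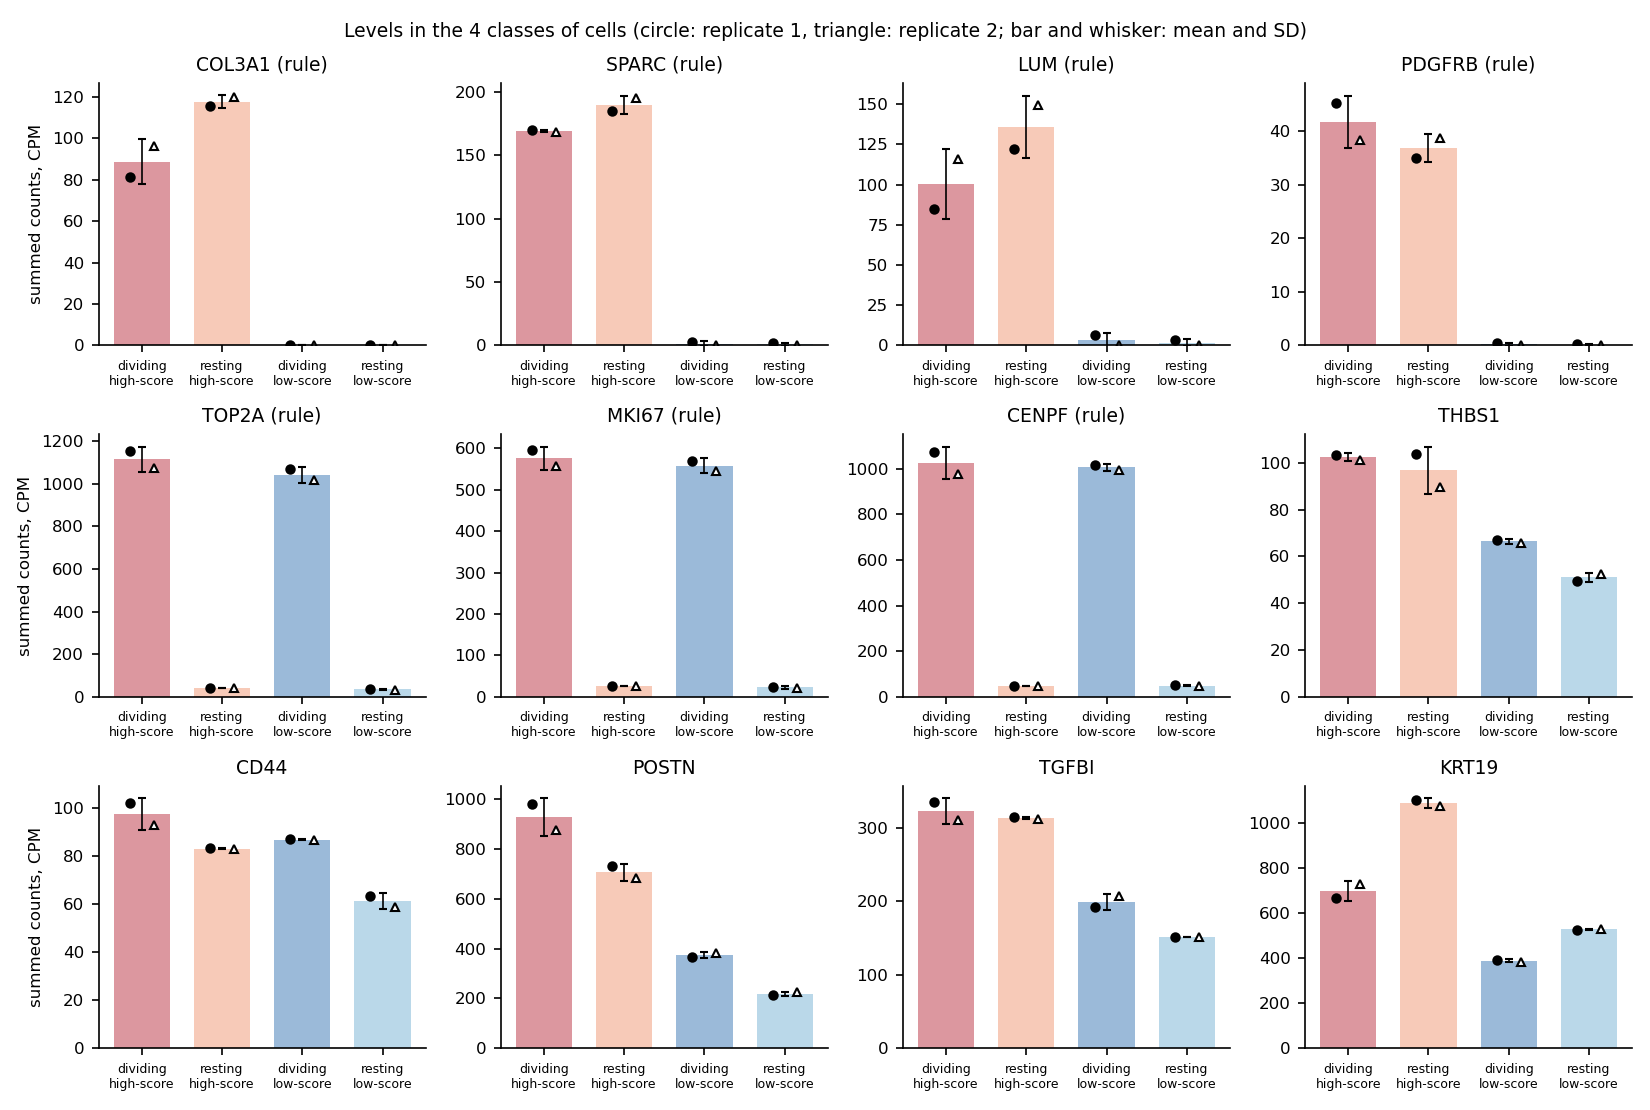
Summed counts in CPM (vertical axes, from 0) of 12 genes in dividing high-score, resting high-score, dividing low-score and resting low-score cells; points are the 2 libraries, bars their mean and whiskers the SD, and genes marked as rule chose the classes. THBS1, POSTN and TGFBI are higher in both high-score classes than in both low-score classes, and KRT19 is highest in resting high-score cells.

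The first comparison asked what dividing high-score cells expressed beside resting cells of the same score. Among 10210 genes at a mean of 10 CPM or more, 306 were at least 2-fold higher in both libraries (3% of genes) and 79 at least 2-fold lower (0.774%). Those lower numbered 162 with a dividing gate of 20, and 208 in replicate 1 and 132 in replicate 2 when each library was taken alone. Of the 306 higher genes, 46 were on the list of G2/M and mitosis genes, 8 on the S phase list and 8 on the list of cyclins, CDKs and inhibitors. Because the gate on TOP2A, MKI67 and CENPF made this contrast, these counts are a description and carry no test. Over all genes the median log2 ratio was −0.003.

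The 10 highest were PIF1, PLK1, NEK2, HIST1H1B, CDCA3, KIF14, AURKB, KIF2C, CDCA8 and CENPE. The DNA helicase PIF1 had 50.8 and 43.9 CPM in dividing high-score cells, against 0.24 and 0.393 CPM in resting high-score cells, where it had 2 counts in each library. The ratio was 211 in replicate 1 (95% exact conditional counting interval 57.8 to 1752) and 112 in replicate 2 (30.5 to 930), so its size is poorly fixed. PLK1, the kinase that drives mitotic entry and spindle assembly, had 99.2 and 102 CPM, against 2.16 and 2.75 CPM, a log2 ratio of 5.36 ± 0.22 (SD, n = 2). NEK2, whose promoter is shown above, had 77.6 and 70.5 CPM, against 2.4 and 1.77 CPM (5.17 ± 0.22). In each case both libraries of dividing cells lay far above both libraries of resting cells, which follows largely from naming the genes with the highest ratios.

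CDCA3, also shown above, had 46.4 and 47.4 CPM in dividing high-score cells, against 1.2 and 1.57 CPM in resting high-score cells (log2 ratio 5.09 ± 0.25). The linker histone HIST1H1B, made in S phase, had 70.4 and 73.6 CPM, against 0.601 and 2.36 CPM (5.92 ± 1.35), with 5 and 12 counts in the resting cells. KIF14, a motor of cytokinesis, had 147 and 134 CPM, against 3.01 and 5.7 CPM (5.08 ± 0.75). The centromere motor CENPE had 274 and 234 CPM, against 11.8 and 12 CPM (4.41 ± 0.18), and the microtubule depolymerase KIF2C 121 and 107 CPM, against 6.13 and 4.13 CPM (4.50 ± 0.28).

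Genes that were lower in dividing high-score cells included signalling genes and secreted liver proteins. ADCY8, an adenylyl cyclase, had 22.7 and 23.8 CPM in dividing high-score cells, against 112 and 100 CPM in resting high-score cells (log2 ratio −2.18 ± 0.16). TNFRSF11B, the decoy receptor osteoprotegerin, had 8.23 and 11.2 CPM, against 50.6 and 45.8 CPM (−2.33 ± 0.41). NABP1, a single-stranded DNA binding protein, had 59.8 and 61.4 CPM, against 162 and 169.7 CPM (−1.45 ± 0.02). The groups did not overlap for any of these, which for genes named by their low ratios follows largely from that choice. The copper carrier ceruloplasmin (CP) had 45.3 and 45.9 CPM, against 121 and 137 CPM (−1.49 ± 0.11), and the fibrinogen chain FGG 32.9 and 41.4 CPM, against 101 and 147 CPM (−1.72 ± 0.15), while the sum of hepatocyte markers was also lower in dividing high-score cells, as given above. Lower levels with division were seen at low score as well, where ADCY8 had 14.2 and 16.8 CPM in dividing low-score cells, against 83.0 and 75.9 CPM in resting low-score cells.

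Of the 48 genes of the G2/M and mitosis list at 10 CPM or more, outside the gate genes, 46 were at least 2-fold higher in dividing high-score cells, all 48 were higher in both libraries, and the median log2 ratio was 3.57, beside 39% of all genes higher and 39.8% lower in both libraries. The spindle factor TPX2 had 512 and 469 CPM, against 33.3 and 35.4 CPM in resting high-score cells. Cyclin B1 (CCNB1), the partner of CDK1 at mitotic entry, had 321 and 292 CPM, against 14.1 and 17.3 CPM. CDK1 itself had 169.7 and 179 CPM, against 14.7 and 15.9 CPM. The hyaluronan receptor HMMR, which also binds the spindle, had 293 and 304 CPM, against 18.0 and 20.4 CPM.

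The S phase list differed less. Of 40 genes, 8 were at least 2-fold higher, 1 was at least 2-fold lower, and the median log2 ratio was 0.42. Over all genes 3% were at least 2-fold higher and 0.774% at least 2-fold lower in this comparison. RRM2, the ribonucleotide reductase subunit made in S phase, had 251 and 222 CPM in dividing high-score cells, against 36.2 and 31.2 CPM in resting high-score cells. The replication clamp PCNA had 226 and 221 CPM, against 153 and 160.5 CPM. The gene that was lower was UNG, a uracil glycosylase made at the start of S phase, with 10.4 and 9.89 CPM, against 24.6 and 23.2 CPM. Of 26 cyclins, CDKs and inhibitors, 8 were at least 2-fold higher and none was at least 2-fold lower. The inhibitor CDKN1A (p21) had 304 CPM in each library of dividing high-score cells and 298 CPM in each of resting high-score cells, so p21 transcript was present at near equal levels on both sides of the gate.

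The second comparison asked what set dividing high-score cells beside dividing cells of low score. Here 118 of 10210 genes were at least 2-fold higher in dividing high-score cells in both libraries (1.16%) and 53 at least 2-fold lower (0.519%), and the median log2 ratio of all genes was 0.006. The counts depended on the processing: with thinned cells, whose classes also differed through ties, 45 were higher and 10 lower, with the top 10% of scores 108 were lower, and in replicate 1 alone 134 were lower. The score made this contrast, so it too is a description with no test.

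ADGRB3, an adhesion receptor known from synapses, had 47.0 and 44.1 CPM in dividing high-score cells, against 4.03 and 4.93 CPM in dividing low-score cells (log2 ratio 3.35 ± 0.27). The guidance receptor ROBO2 had 685 and 614 CPM, against 108 and 127 CPM (2.47 ± 0.27). Decorin (DCN), a collagen-binding proteoglycan of fibroblasts, had 82.1 and 87.0 CPM, against 11.5 and 14.4 CPM (2.72 ± 0.17). All 3 were higher still in resting high-score cells, where ROBO2 had 1076 and 909 CPM and DCN 157 and 167 CPM. The gelatinase MMP2 had 41.7 and 39.6 CPM in dividing high-score cells, against 8.47 and 10.1 CPM in dividing low-score cells (2.14 ± 0.23). The potassium channel KCND2 had 90.1 and 71.5 CPM, against 7.42 and 12.8 CPM (3.04 ± 0.79), and the calcium channel CACNA1C 51.7 and 49.5 CPM, against 6.89 and 7.95 CPM. The remaining genes of the 10 highest, TCEAL2, MAGEA1, ERC2, PTCHD1-AS and NCALD, lay between 32.7 and 95 CPM in dividing high-score cells.

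On the lower side, TENM1, an X-linked teneurin, had 12.1 and 12.7 CPM in dividing high-score cells, against 62.4 and 67.8 CPM in dividing low-score cells (log2 ratio −2.39 ± 0.04). AKR1C2, a steroid-reducing enzyme, had 107 and 106 CPM, against 355 and 345 CPM (−1.72 ± 0.02), and its near-identical relative AKR1C1 179.5 and 188 CPM, against 386 and 363 CPM; reads may be split between such relatives. IFI27, an interferon-induced gene, had 22.1 and 19.5 CPM, against 55.6 and 55.0 CPM (−1.41 ± 0.12). Each gave separate groups in both libraries, which again follows largely where genes were named by their low ratios. Albumin was also among the 10 lowest, at −3.00 ± 2.24, an SD that reflects its 46.2 and 348 CPM in dividing high-score cells.

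Of 14 further mesenchymal markers at 10 CPM or more, 13 were higher in both libraries of dividing high-score cells than of dividing low-score cells, 3 of them by at least 2-fold, and the median log2 ratio was 0.63, beside 36.6% of all genes higher in both libraries. FN1 had 1074 and 1011 CPM, against 689 and 665 CPM in dividing low-score cells. POSTN had 981 and 876 CPM, against 367 and 383 CPM, and COL5A1 194 and 189 CPM, against 104 and 102 CPM. Against resting high-score cells, 4 of the 14 were higher and 5 lower, with a median of −0.03, beside 39% of all genes higher and 39.8% lower in both libraries. The markers were thus mixed in that comparison. From cell to cell, the median of POSTN was higher in dividing than in resting high-score cells in both libraries, as given below. The median of COL5A1 was slightly lower in both, and that of FN1 gave no common direction.

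Mitotic genes were similar in the 2 dividing classes: of 48 G2/M genes none differed by 2-fold, 16 were higher and 13 lower in both libraries, and the median log2 ratio was 0.02, which became −0.04 with TMM scaling. Over all genes 36.6% were higher and 33.6% lower in both libraries, and 1.16% and 0.519% by at least 2-fold. The S phase list was shifted as a whole, with 33 of 40 genes higher in both libraries, 1 lower and a median of 0.25. Its sum was 2856 and 2865 CPM in dividing high-score cells, against 2531 and 2548 CPM in dividing low-score cells. Resting cells differed in the same direction, with 1895 and 1838 CPM at high score, against 1494 and 1509 CPM at low score. The shift was thus not particular to dividing cells. CCNE2, the cyclin of S phase entry, had 20.2 and 23.3 CPM in dividing high-score cells, against 10.6 and 12.4 CPM in dividing low-score cells (log2 ratio 0.92 ± 0.01). The replication checkpoint adaptor CLSPN had 112 and 99.4 CPM, against 79.3 and 69.8 CPM (0.50 ± 0.01).

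Phase calls were made from the S and G2/M lists without the gate genes, on cells thinned to 4000 UMIs, which left out 5 and 4 dividing high-score cells and 24 and 11 dividing low-score cells. S phase was called in 12.6% (95% exact interval 8.81 to 17.4%) and 12.5% (9.07 to 16.7%) of dividing high-score cells, against 7.55% (5.75 to 9.69%) and 6.43% (4.83 to 8.37%) of dividing low-score cells, a difference of 5.60 ± 0.71 percentage points (SD, n = 2). Without thinning the shares were 9.69% and 9.52%, against 6.27% and 5.22%. G2/M was called in 85.0% and 86.8% of dividing high-score cells, against 90.4% and 92.1% of dividing low-score cells. The order was the same in both libraries. The exact permutation test over libraries gave a two-sided p of 0.333 for the S phase share, the smallest that 2 libraries a class can give. This test too took the classes as unpaired although they share the captures, so it decides nothing. Among resting high-score cells 75.2% and 73.1% were called G1 and 22.6% and 20.9% S. Among resting low-score cells 15.6% and 16.8% were called S, so S calls were more frequent at high score in resting cells too.

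**Figure D3:**
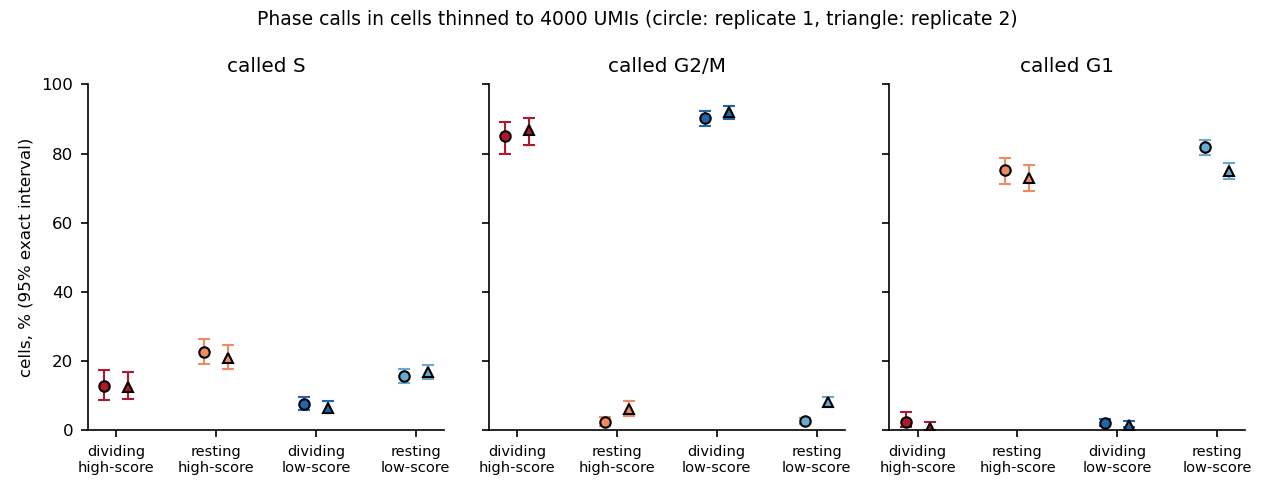
Cells called S, G2/M or G1 (vertical axes, %, with 95% exact intervals) in the 4 classes after thinning to 4000 UMIs; circles are replicate 1 and triangles replicate 2. Dividing high-score cells were called S in 12.6% and 12.5% of cells, against 7.55% and 6.43% of dividing low-score cells.

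The dividing high-score cells varied among themselves, and part of the variation followed the phase call. Because the calls used S and G2/M genes, levels of those genes in called cells are a description. Over all UMIs 25 and 30 cells were called S. CCNE2 had 129 and 123 CPM in cells called S, against 8.68 and 13.4 CPM in cells called G2/M, and CCNB1 34.9 and 13.9 CPM, against 351 and 320 CPM. KRT19, a keratin of biliary epithelium, had 1031 and 1284 CPM in cells called S, against 631 and 675 CPM in cells called G2/M. It was thus higher in cells called S in each library. Of the score genes, COL3A1 was at 88.3 and 78.0 CPM in cells called S, against 80.5 and 98.5 CPM in cells called G2/M, and so gave no common direction. PDGFRB was lower in cells called S in both libraries, at 34.9 and 25.1 CPM on 17 and 9 counts, against 46.4 and 39.7 CPM in cells called G2/M.

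From cell to cell, POSTN had a median of 7.60 UMIs per 10000 in replicate 1 (quartiles 3.32 and 14.2) and 6.28 in replicate 2 (1.87 and 12.4). KRT19 had medians of 4.86 (1.52 and 8, highest 53.6) and 4.39 (1.42 and 9.62, highest 80.8). Between the quartiles the cells thus spanned over a severalfold range for both genes. In resting high-score cells the median of POSTN was lower, at 4.39 and 3.80 UMIs per 10000, and that of KRT19 higher, at 6.67 and 6.22.

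Matricellular genes and targets of TGF-beta and YAP, which mark contractile and wound-type mesenchymal cells, were mixed. For the list counts that follow, the shares over all genes were 39% higher and 39.8% lower in both libraries against resting high-score cells, and 36.6% and 33.6% against dividing low-score cells. Of 23 genes at 10 CPM or more, 7 were higher and 11 lower in both libraries of dividing than of resting high-score cells, 1 of them by 2-fold, with a median log2 ratio of −0.13. TGFBI, a secreted adhesion protein induced by TGF-beta, had 335 and 311 CPM in dividing high-score cells, against 314 and 312 CPM in resting high-score cells and 192 and 207 CPM in dividing low-score cells. The coactivator WWTR1 (TAZ), a relative of YAP, had 40.2 and 40.1 CPM, against 64.9 and 63.3 CPM in resting high-score cells. SPP1 (osteopontin) had 1.37 and 4.31 CPM, against 10.6 and 23.8 CPM in resting high-score cells and 17.9 and 16.2 CPM in dividing low-score cells.

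Of 9 collagens outside COL3A1 at 10 CPM or more, 2 were higher and 6 lower in both libraries of dividing than of resting high-score cells, with a median log2 ratio of −0.18, beside 39% of all genes higher and 39.8% lower. The basement membrane chain COL4A5 had 260.4 and 276 CPM in dividing high-score cells, against 382 and 403 CPM in resting high-score cells. Of 12 PDGF pathway genes, 2 were higher and 7 lower, with a median of −0.20. None of the genes of either list passed 2-fold. The ligand PDGFC had 119 and 117 CPM, against 148 and 140.5 CPM, and the PI3K subunit PIK3R1 135 and 148 CPM, against 196 and 195 CPM. The ligand PDGFA had 51.1 and 43.4 CPM, against 44.6 and 45.2 CPM, so its groups overlapped. The other receptor of the family, PDGFRA, was at 0.784 and 0.761 CPM in dividing high-score cells.

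Actin and adhesion genes were higher at high score. Of 23 genes, 19 were higher and 3 lower in both libraries of dividing high-score than of dividing low-score cells, with a median log2 ratio of 0.23, while against resting high-score cells 8 were higher and 10 lower. TPM4, a tropomyosin of stress fibres, had 668 and 631 CPM in dividing high-score cells, 669.5 and 578 CPM in resting high-score cells and 406 and 399.7 CPM in dividing low-score cells. Caveolin (CAV1) had 1333 and 1322 CPM, 1340.1 and 1239.9 CPM, and 989 and 1021 CPM in the same classes. Of 13 genes around CD44 and cell migration, 11 were higher than in dividing low-score cells, with a median of 0.25. LGALS1, a galectin of mesenchymal cells, had 1043 and 952 CPM in dividing high-score cells, against 812 and 801 CPM in dividing low-score cells.

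The amino acid and integrated stress response list was higher with division, with 13 of 14 genes higher in both libraries than in resting high-score cells and a median log2 ratio of 0.62. It also differed along the score, with 9 of 14 lower and 1 higher than in dividing low-score cells and a median of −0.24. Its transcription factor ATF4 had 118 and 109 CPM in dividing high-score cells, against 56.8 and 61.1 CPM in resting high-score cells and 134 and 134 CPM in dividing low-score cells. Heat shock genes were also higher with division, 16 of 21 with a median of 0.32. The chaperone HSPA8 had 654 and 638 CPM, against 384 and 417 CPM in resting high-score cells, and HSP90AA1 1275 and 1256 CPM, against 824 and 809.7 CPM.

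Unfolded protein response genes were higher at high score, with 17 of 20 genes higher and none lower in dividing high-score than in dividing low-score cells, a median log2 ratio of 0.28, and 8 higher and 5 lower against resting high-score cells. HSPA5 (BiP), the main chaperone of the endoplasmic reticulum, had 474 and 459.7 CPM in dividing high-score cells, 507 and 462 CPM in resting high-score cells and 307 and 295 CPM in dividing low-score cells. NRF2 and redox genes ran the other way, with 18 of 19 lower and none higher than in dividing low-score cells and a median of −0.33, beside 33.6% of all genes lower in both libraries. The ferritin light chain FTL had 11229.8 and 12026 CPM in dividing high-score cells, against 14465 and 14839.7 CPM in dividing low-score cells, and the thioredoxin reductase TXNRD1 1173 and 1156 CPM, against 1489 and 1444 CPM.

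Of 26 p53 targets, 19 were lower and 2 higher in dividing high-score than in dividing low-score cells, with a median of −0.20, beside 33.6% of all genes lower and 36.6% higher. MDM2, the ligase that degrades p53, had 923 and 943 CPM in dividing high-score cells, 803 and 792 CPM in resting high-score cells and 1165 and 1077 CPM in dividing low-score cells. Against resting high-score cells 16 of the 26 were higher and 8 lower, with a median of 0.11. Hypoxia genes were lower with division, 17 of 22 with a median of −0.36, beside 39.8% of all genes, where BNIP3, a mitophagy receptor, had 87.6 and 89.8 CPM in dividing high-score cells, against 145 and 130.0 CPM in resting high-score cells. The directions with division were the same at low score, in dividing against resting low-score cells. There 17 of 22 hypoxia genes were lower and 2 higher (median −0.31), and 20 of 26 p53 targets higher and 3 lower (0.33). For the integrated stress response 13 of 14 genes were higher and 1 lower (0.55). Of 21 heat shock genes 17 were higher and 4 lower (0.42). Over all genes 47.7% were higher and 40.5% lower in both libraries there. In all of these lists the 2-fold mark was passed by few genes, so the shifts were small beside those of the mitotic list.

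**Figure D4:**
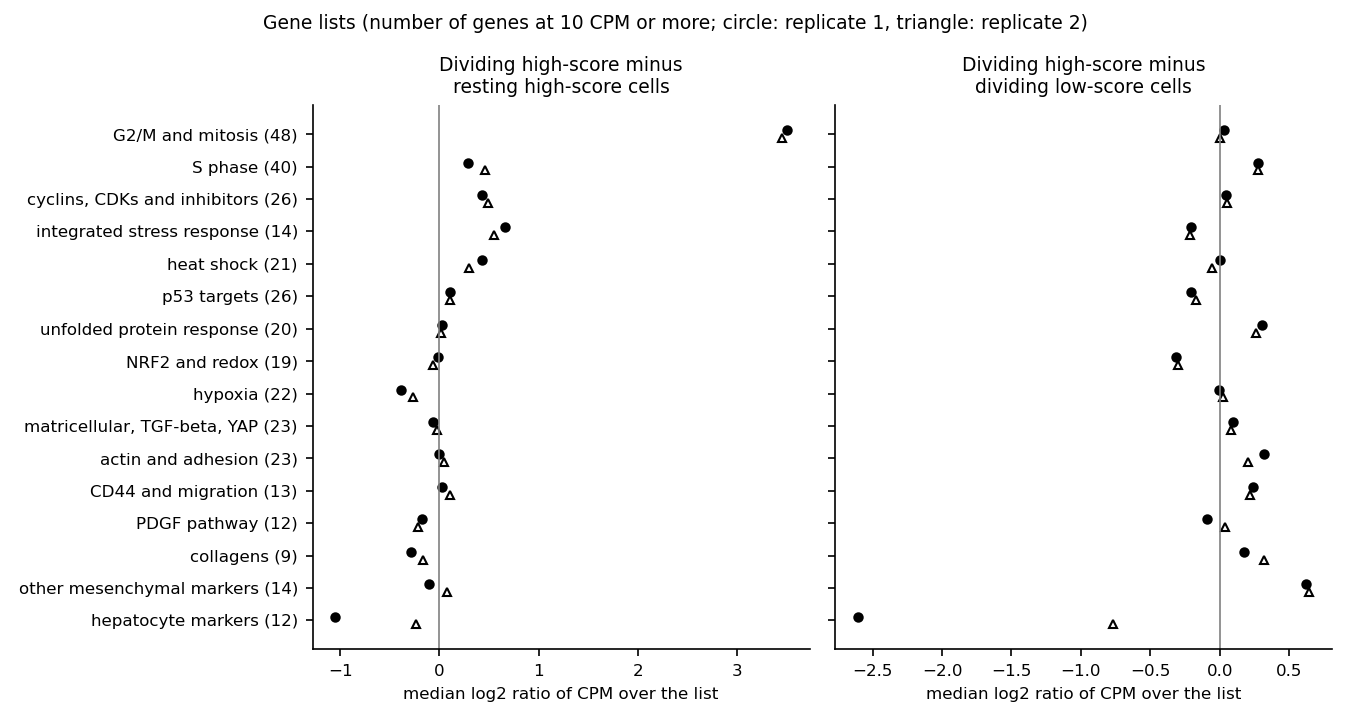
Median log2 ratio of CPM (horizontal axes) over each gene list (rows, with the number of genes at 10 CPM or more) for dividing high-score against resting high-score cells (left) and against dividing low-score cells (right); circles are replicate 1 and triangles replicate 2. The G2/M list stands at a median of 3.57 on the left and 0.02 on the right, and the hepatocyte list differs between the libraries.

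The interaction of division and score was the measure the rule did not fix, since a difference between dividing and resting cells could be the same at both scores. It was tested with edgeR's quasi-likelihood test on the summed counts, as dividing minus resting at high score less dividing minus resting at low score, with the library as a block. The 7 genes of the rule were left out. Of 16548 genes, 282 had a higher and 111 a lower difference at high score at an adjusted p under 0.05 (1.7% and 0.671%), and 75 and 4 of them by at least 2-fold. The counts depended on the processing: 41 and 13 genes were called with cells thinned to 4000 UMIs, where ties also changed the classes, 54 and 25 with DESeq2, and 128 and 189 with the top 10% of scores. With the library as a block, p-values measure how far class differences vary between 2 libraries with 1 biological replicate label. That spread had 3 residual degrees of freedom per gene. It was pooled with the spread of other genes, weighted as 16.3 prior degrees of freedom. A gene whose libraries differ widely can therefore still be called. The classes were also defined on the same counts, so p-values are too small for classes defined on other data.

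The called higher genes had a median log2 ratio of −0.10 for dividing over resting cells at high score and −0.75 at low score, where 105 of 282 were at least 2-fold lower in dividing cells. Over all 10210 genes described, 3.51% were at least 2-fold higher and 2.11% at least 2-fold lower in dividing than in resting low-score cells, and 47.7% and 40.5% were higher and lower by any amount in both libraries. Transferrin (TF), the iron carrier of plasma, had 2.55 and 22.1 CPM in dividing high-score cells, against 9.74 and 10.2 CPM in resting high-score cells, and 42.9 and 30.6 CPM in dividing low-score cells, against 314 and 286 CPM in resting low-score cells (interaction on the log2 scale 3.20 ± 0.54, SE; edgeR adjusted p = 0.0027). The value was 0.94 in replicate 1 alone and 4.34 in replicate 2 alone. Haptoglobin (HP), an acute phase protein, had 9.21 and 53.3 CPM, against 28.3 and 61.9 CPM at high score, and 99.0 and 92.1 CPM, against 573 and 605 CPM at low score (2.09 ± 0.43, edgeR adjusted p = 0.011), with 0.92 in replicate 1 alone and 2.5 in replicate 2 alone. Of 14 hepatocyte markers tested, 7 were called higher and none lower.

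Cells with over 50 hepatocyte UMIs per 10000 made up 0.388% and 1.59% of dividing high-score cells, 1.68% and 6.95% of resting high-score cells, 9.79% and 9.08% of dividing low-score cells and 28.9% and 29.8% of resting low-score cells. Without those cells 24 genes were called higher and 20 lower of 16295 tested (0.147% and 0.123%), none of 12 hepatocyte markers was called, and the interaction of TF was −0.41 (edgeR adjusted p = 0.90; 2.7e-43 to 0.90 over 10 alternatives, of which 5 called it). The hepatocyte markers, TF among them, had chosen the cells left out, so for these markers the loss of calls is not a test. The cells left out held 5.51% and 53.5% of the hepatocyte UMIs of dividing high-score cells and 19.8% and 48.6% of resting high-score cells. At low score they held 73.7% and 70.7% in dividing cells and 91.9% in each library of resting cells. Of the 282 higher and 111 lower calls, 17 and 14 were called in the same direction without those cells.

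**Figure D5:**
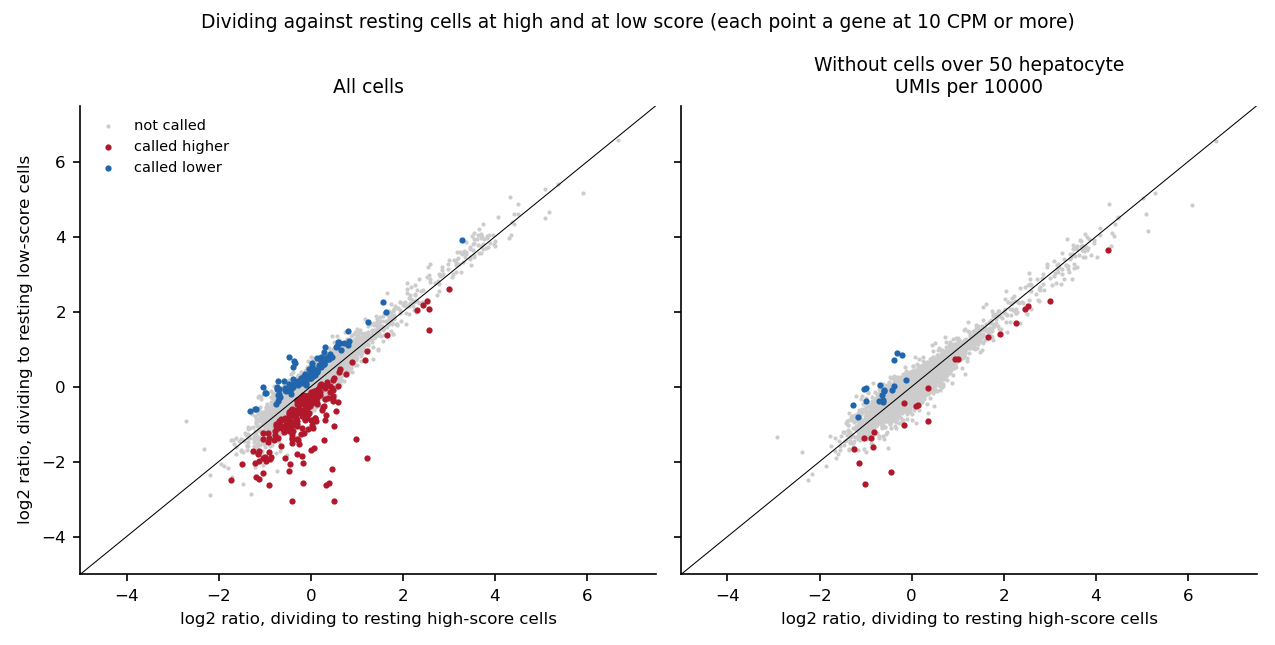
Each point is 1 of 10210 genes; the log2 ratio of dividing to resting cells at high score (horizontal axis) is plotted against that at low score (vertical axis), with the line of equality, in all cells (left) and without cells over 50 hepatocyte UMIs per 10000 (right). On the left 248 of these genes are called higher and 109 lower, on the right 23 and 18, and genes with large ratios lie along the line in both plots.

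Among the genes named for the interaction, H19, FGF13, TENM1, IFI27 and HMCN1 were called lower with and without the cells of high hepatocyte content. TENM1 had 12.1 and 12.7 CPM in dividing high-score cells, against 15.4 and 16.5 CPM in resting high-score cells, and 62.4 and 67.8 CPM in dividing low-score cells, against 41.5 and 39.4 CPM in resting low-score cells (−0.99 ± 0.18, SE; edgeR adjusted p = 0.0037; −1.21 and 0.0013 without those cells). The difference between dividing and resting cells thus had opposite signs at the 2 scores. TENM1 was called in 9 of 10 alternatives with a test, with adjusted p of 1.2e-05 to 0.85; the exception was thinned cells, where it was at −0.24 and none of the lower genes named here was called (adjusted p of 0.31 to 0.85). HMCN1, a hemicentin of the extracellular matrix, had 35.7 and 33.0 CPM, against 66.7 and 70.3 CPM at high score, and 25.1 and 22.3 CPM, against 28.8 and 24.6 CPM at low score (−0.77 ± 0.13, edgeR adjusted p = 0.0032; −0.60 and 0.045 without those cells). The imprinted RNA H19 had 24.9 and 32.2 CPM, against 44.5 and 35.0 CPM at high score, and 6.31 and 9.06 CPM, against 4.87 and 3.99 CPM at low score (−1.20 ± 0.25, edgeR adjusted p = 0.014; −1.05 and 0.038 without those cells). FGF13, an intracellular relative of the fibroblast growth factors, had 13.1 and 10.1 CPM, against 26.9 and 20.6 CPM at high score, and 29.3 and 24.4 CPM, against 26.3 and 27.2 CPM at low score; its interaction was −1.03 ± 0.19 (SE, edgeR adjusted p = 0.0056) but 0.27 with thinned cells. IFI27 had 22.1 and 19.5 CPM, against 32.2 and 35.8 CPM at high score, and 55.6 and 55.0 CPM, against 48.7 and 50.4 CPM at low score. H19, FGF13, IFI27 and HMCN1 were each called in 8 of 10 alternatives.

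Without the cells of high hepatocyte content, BIRC5, PTTG1 and MT2A were among the genes called higher; they were chosen after their values were seen. Of the lists, 1 of 48 G2/M genes, 1 of 43 S phase genes and 1 of 28 cyclins, CDKs and inhibitors were called higher there. Called lower were 1 of 15 collagens and 1 of 24 hypoxia genes. Over all 16295 genes tested there, 0.147% were called higher and 0.123% lower. BIRC5 (survivin), which protects dividing cells and guides chromosome segregation, had 185 and 169 CPM in dividing high-score cells, against 22.4 and 21.4 CPM in resting high-score cells, and 179 and 181 CPM in dividing low-score cells, against 30.7 and 28.2 CPM in resting low-score cells. Its interaction was 0.45 (edgeR adjusted p = 0.022) with all cells and 0.71 (6.9e-04) without those cells. PTTG1 (securin), which keeps separase inactive until anaphase, had an interaction of 0.26 (0.066) with all cells and 0.53 (5.4e-04) without. MT2A, a metal-binding metallothionein, had 1628 and 1484 CPM, against 1285 and 1135 CPM at high score, and 1133 and 1115 CPM, against 1055 and 997 CPM at low score, with an interaction of 0.27 (0.0022) with all cells and 0.36 (8.2e-06) without.

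Over the lists, the interaction in all cells called 1 of 48 G2/M genes higher, 1 of 43 S phase genes higher, 11 of 24 actin and adhesion genes lower, 3 of 24 matricellular genes lower, 3 of 26 p53 targets lower and 5 of 20 unfolded protein response genes higher, beside 1.7% of all genes called higher and 0.671% called lower. Among other lists, 2 of 21 further mesenchymal markers, 2 of 15 collagens and 1 of 14 CD44 and migration genes were called lower. Of 17 PDGF pathway genes, 2 were called higher. Beta-actin (ACTB) had an interaction of −0.22 (edgeR adjusted p = 7.5e-04) with all cells and −0.07 (adjusted p = 0.61) without the cells of high hepatocyte content, where none of the actin and adhesion, matricellular, p53 or unfolded protein response genes was called. THBS1 and CD44, the markers of the label outside the rule, had interactions of −0.28 ± 0.09 and −0.22 ± 0.08 (SE; edgeR adjusted p = 0.15 and 0.22), so for neither was the difference between dividing and resting cells shown to depend on the score. THBS1 was called lower in 3 of 10 alternatives, with values of −0.49 to −0.003, and CD44 in none.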

How the data were processed

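The 2 libraries were measured by droplet 3′ RNA sequencing of vehicle-treated HepaRG cells. The files the authors deposited hold raw UMI counts per barcode and feature, made with Cell Ranger 7.0.0 per the file headers. STAR and GRCh38 are named in the submitters' processing notes. Which annotation was used, whether intronic reads were counted and how barcodes were first filtered is not given in the sources used here. Of 36601 gene IDs, 34616 matched GENCODE 29, which gave chromosomes. The 12 antibody features held 0 UMIs and were not used.

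Kept barcodes had 500 genes or more, 1000 UMIs or more and no more than 25% of UMIs from mitochondrial genes, which left 4454 of 4591 barcodes (85475317 UMIs before filtering) in replicate 1 and 4894 of 4998 (57246647 UMIs) in replicate 2. Ties at the score threshold stayed together. Doublets and RNA free in the suspension were not removed. The members, the 21 gene lists and the tests were chosen with earlier results of these data known.

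Counts were summed per library and class and scaled to CPM. In ratios, a sum under 3 counts was set to 3 counts. A gene was past the fold at 2-fold or more in the same direction in both libraries, among genes with a mean of 10 CPM or more over the 8 sums; the 7 rule genes were left out. Named were the rule genes, THBS1 and CD44; the 10 highest and 10 lowest genes of each described comparison by the smaller of the 2 libraries' ratios and the 8 highest and 8 lowest interaction values among called genes, all at a mean of 20 CPM or more; and up to 4 genes by level in each list with those the list is known by. Some genes that this rule names are not reported here. The interaction used edgeR 4.0.16 in R 4.3.3 (quasi-likelihood, TMM, filterByExpr, 5 coefficients, 3 residual degrees of freedom, the library as replicate block since the classes of a library are the same capture), with Benjamini-Hochberg adjustment over all genes tested. Each SE was derived from the F statistic of that test (absolute value divided by its root). In simulated data for this interaction over 16323 genes, the test recovered 46 of 50 genes with a 1.5-fold change and 50 of 50 with a 2-fold change. It recovered 50 of 50 with a 3-fold and 49 of 50 with a 4-fold change, and made 9 false calls. The simulation gave every gene the same dispersion (8.5e-04) and drew the 8 sums independently. It held no classes gated on the same counts and no rare cells rich in hepatocyte RNA. Its figures therefore do not give the error rate in the real sums. Phases came from scanpy 1.11.5 in Python 3.11.15. DESeq2 1.42.0 was an alternative, as were other gates, thinning, scaling and filters.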

Additional observations from a re-analysis of the deposited data

Results flagged for a closer look

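For the genes below, the difference between dividing and resting cells was not the same at high score and at low score, by edgeR's interaction test; each value is dividing minus resting at high score less the same at low score, on the log2 scale. The highest were secreted or metabolic genes of liver. TF and HP were among the markers behind the cut of 50 hepatocyte UMIs per 10000. The vitamin D carrier GC was at 3.48 (adjusted p = 0.022), with 1 count in dividing high-score cells of replicate 1, so its size depends on the fit. APOH was at 3.22 (0.0032), TF at 3.20 (0.0027), APOC3 at 2.49 (0.0021), AMBP at 2.11 (0.010), HP at 2.09 (0.011), GATM at 1.87 (0.0022) and AGMO at 1.63 (0.0030). APOH had 2.55 and 19.0 CPM in dividing high-score cells, 3.61 and 7.07 CPM in resting high-score cells, 25.1 and 22.7 CPM in dividing low-score cells and 116 and 104 CPM in resting low-score cells. In replicate 1 alone and in replicate 2 alone, GC was at 1.89 and 4.05, APOH at 1.70 and 3.63, TF at 0.94 and 4.34, AMBP at 0.92 and 2.52, and HP at 0.92 and 2.5. Without cells over 50 hepatocyte UMIs per 10000, APOH was at −0.065, TF at −0.41, APOC3 at −0.55, AMBP at 0.00, HP at 0.45, GATM at −0.091 and AGMO at 0.62, all with adjusted p of 0.48 or more, and GC was not tested.

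The lowest were H19 at −1.20 (edgeR adjusted p = 0.014), FGF13 at −1.03 (0.0056), TENM1 at −0.99 (0.0037), IFI27 at −0.81 (0.0027), HMCN1 at −0.77 (0.0032), PDE5A at −0.68 (0.018) and GPSM2 at −0.64 (0.014). Without the cells of high hepatocyte content the first 5 were called again, whereas PDE5A was at −0.57 (0.13) and GPSM2 at −0.55 (0.082). GPSM2, which orients the mitotic spindle, had 87.0 and 69.8 CPM in dividing high-score cells, 25.6 and 27.3 CPM in resting high-score cells, 75.4 and 73.9 CPM in dividing low-score cells and 15.5 and 15.5 CPM in resting low-score cells.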

How the results depend on the processing

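The share of dividing high-score cells was 2.91% with the top 10% of scores, 3.39% with a gate of 20 and 9.74% with thinned cells, where 68.8% of replicate 1's cells of this class were chosen again. Genes at least 2-fold higher than in resting high-score cells numbered 461 at a mean of 1 CPM; those lower numbered 162 with a gate of 20, 309 at 1 CPM and 132 to 208 in single libraries. Against dividing low-score cells, 45 genes were higher with thinned cells and 402 at 1 CPM, and 108 were lower with the top 10%, 10 with thinned cells, 186 at 1 CPM and 61 to 134 in single libraries. The interaction called 128 genes higher and 189 lower with the top 10% of scores, 41 and 13 with thinned cells, 24 and 20 without cells of high hepatocyte content (chosen after seeing the data), and 54 and 25 with DESeq2; without a filter on low counts 255 were lower, and without the replicate block 69 were lower and 196 higher. With size factors in place of TMM 237 were higher and 159 lower. The difference in cells called S was 3.86 points without thinning and 5.10 to 6.11 in single libraries. Reversed were CD44 with thinned cells (0.11), GC with the top 10% (−1.98), FGF13 with thinned cells (0.27), and, without cells of high hepatocyte content, APOH (−0.065), TF (−0.41), APOC3 (−0.55) and GATM (−0.091); the cause was not tested. Ties among thinned cells put every cell with a score of 0 in the low-score class and every other cell in the high-score class, so that setting changed the classes as well as the depth. Leaving out a library left no residual degrees of freedom for the interaction. Replicate 2 had fewer UMIs, which limits genes near 10 CPM.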

Other observations

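By chromosome, over 7721 genes at a mean of 20 CPM or more outside the cell cycle lists, genes on chromosome 2 had a median log2 ratio of −0.073 and −0.075 relative to all genes in dividing high-score against dividing low-score cells, and genes on chromosome 13 0.067 and 0.053, on the X chromosome 0.051 and 0.050, and on chromosome 15 0.050 and 0.038.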
